A study of Danio rerio with 7 samples.

Results

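The genes described here are 9 pituitary hormone genes of the zebrafish (Danio rerio) and pou1f1, a transcription factor gene of the same gland. They were picked by name, and all 10 were found among the 30421 gene rows of the count table. The hormone genes are gh1 (growth hormone), prl (prolactin), smtla and smtlb (somatolactins), cga (the alpha subunit that the glycoprotein hormones share), tshba, lhb and fshb (the beta subunits of thyroid-stimulating, luteinizing and follicle-stimulating hormone) and pomca (proopiomelanocortin). The hm41 group comprised 3 bulk RNA-seq libraries (69, 70 and 71), each from pooled heads of larvae that the labels call hm41 mutant, at 5 days post fertilization (dpf). The WT group comprised 3 libraries (66, 67 and 68) from pooled heads of wild type larvae of the same age, which the design text calls siblings. The mutants come from a line with a leaky blood-brain barrier, and the bulk libraries served to find the lesion, which was linked to chromosome 14 and to spock1. The labels state neither the zygosity of hm41 nor the number of larvae in a pool, and nothing in them says that the pools came from separate clutches, so p-values measure the spread between these libraries only. The remaining sample, a single-cell library whose label mixes both genotypes and 2 ages, was not analysed here.

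The pituitary is an endocrine gland under the hypothalamus. Its anterior part releases peptide hormones into the blood, and each is made by its own cell type. Pou1f1 is needed for the cells that make growth hormone, prolactin and thyroid-stimulating hormone, in mammals and in zebrafish. Somatolactin is a fish hormone related to growth hormone and prolactin. Proopiomelanocortin is cut into adrenocorticotropic hormone, which drives the steroid-producing interrenal cells, and into melanocortins, which act on pigment cells. In RefSeq's annotation of GRCz12tu (the submitters' processing notes name another build, GRCz11) spock1 lies on chromosome 14 and none of the 10 genes does.

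Depth for these genes was low. Between 93.6% and 95.7% of the counts of each library fell in the 8 most abundant rows. Outside them, 2142677, 4509229 and 2341315 counts were left in hm41 69, 70 and 71, against 4959770, 1664899 and 4775759 in WT 66, 67 and 68. Levels are given here in CPM, counts per 1e6 of these remaining counts, as means ± SD of 3 libraries or with a 95% exact Poisson interval for a single library. Reads that carry no molecular identifier are not independent molecules, so the intervals and floors cover counting error alone.

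The 10 genes together held 23.62, 82.99 and 30.55 expected counts in hm41 69, 70 and 71, against 56.93, 17.8 and 44.16 in WT 66, 67 and 68. Their summed level was 11.02, 18.4 and 13.0 CPM in the hm41 libraries and 11.5, 10.7 and 9.25 CPM in the WT libraries, so that hm41 70 stood above all others and hm41 69 lay within the WT range. Of the 10 genes, 8 had a count somewhere and 2, tshba and fshb, had none in any library. At least 1 count was found for 3, 7 and 5 of the genes in hm41 69, 70 and 71, against 4, 2 and 7 in WT 66, 67 and 68. The library with the fewest remaining counts, WT 67, showed the fewest of these genes, and hm41 70 and WT 68, which were among the deeper libraries, showed the most. WT 66, the deepest of all, showed only 4. Among all rows, the share with a count was 77.4% to 82.7% in hm41 and 77.5% to 83.8% in WT libraries.

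**Figure D1:**
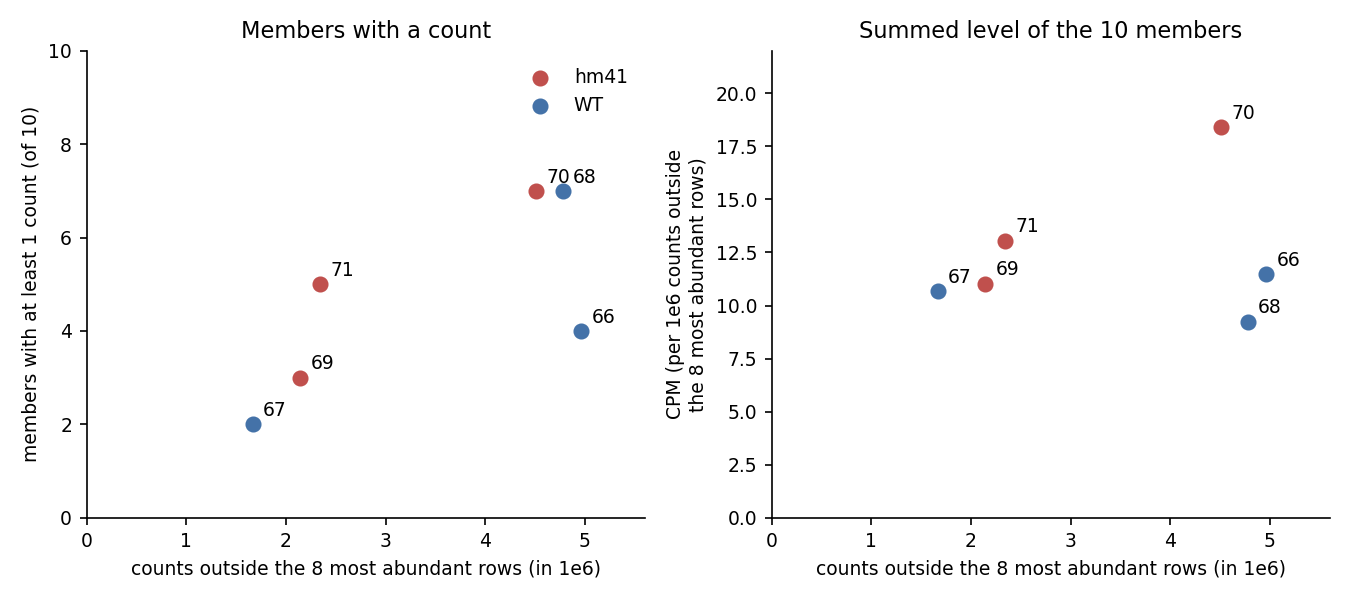
The left panel plots how many of the 10 pituitary genes had at least 1 count against the counts (in units of 1e6) outside the 8 most abundant rows, and the right panel plots the summed level of the genes in CPM. Each point is a library with its number (hm41 red, WT blue). hm41 70 and WT 68 show 7 genes and WT 67 shows 2, and the summed level of hm41 70 (18.4) lies above all others.

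In bulk samples such as these, fewer hormone cells and less RNA per cell cannot be told apart. Growth hormone, the product of somatotrope cells, was counted in all hm41 libraries and in 2 of the 3 WT libraries. The gh1 row held 8, 12 and 8 counts in hm41 69, 70 and 71, against 8, 0 and 5 counts in WT 66, 67 and 68. Scaled to depth, the gh1 level was 3.73, 2.66 and 3.42 CPM in the hm41 libraries, against 1.61, 0 and 1.05 CPM in the WT libraries. Every hm41 library thus lay above every WT library, although hm41 69 and WT 66 held the same number of gh1 counts at different depths.

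The gh1 mean was 3.27 ± 0.551 CPM in hm41 heads and 0.887 ± 0.818 CPM in WT heads (SD, n = 3 each). Over the summed counts (28 in hm41, 13 in WT), the ratio of hm41 to WT was 2.73, with an interval for counting error alone of 1.37 to 5.74. Single libraries were less distinct. The interval of hm41 70 was 1.38 to 4.65 CPM, while that of WT 66 was 0.696 to 3.18 CPM, and the 0 of WT 67 allows a gh1 level of up to 1.80 CPM (3 counts).

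The row did not pass the filter on low counts. In the fit with no filter the gh1 log2 fold change of hm41 over WT was 1.62 (95% confidence interval -0.13 to 3.38), and edgeR gave an adjusted p of 0.599 over 27742 rows. The higher values in hm41 therefore did not pass the threshold of 0.05. Such a lack of overlap with hm41 above WT was seen for 5.96% of all rows with a count, and for 1 of the 8 pituitary genes with a count. None of the 8 lay below WT in all hm41 libraries, against 7.87% of all rows with a count.

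Among genes of endocrine cells outside the pituitary, the insulin gene ins, singled out after its values were seen, had the same arrangement. The ins level was 2.80, 5.10 and 2.14 CPM in hm41 69, 70 and 71, against 1.01, 1.201 and 1.47 CPM in WT 66, 67 and 68 (log2 fold change 1.48 and adjusted p = 0.605 by edgeR with no filter). Glucagon and somatostatin genes of that list, also named after their values were seen, did not share it, and their groups overlapped. Means in hm41 and WT were 0.892 and 2.21 CPM for gcga and 0.734 and 1.69 CPM for gcgb. They were 0.148 and 0.548 CPM for sst2 and 4.41 and 4.27 CPM for sst1.1. The slc5a5 and cyp11a2 genes of that list, also seen first, lay the opposite way, below WT in all hm41 libraries. Their counts, near the limit of detection, were 0 and 2 over hm41 and 9 and 20 over WT libraries. The whole list of 15 genes of endocrine cells outside the pituitary, all of which had counts, summed to between 53.7 and 82.5 CPM in hm41 and between 60.7 and 85.0 CPM in WT, with overlap between the groups. Among the 7 of its genes that were tested, 0 passed the threshold, against 0.0571% of all tested genes. Whether other tissue in the dissected heads had a part in the gh1 values was not tested.

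Prolactin, the product of lactotropes and a hormone of ion balance in fish, was counted less. The prl row held 0, 7 and 2 counts in hm41 69, 70 and 71, against 2, 0 and 2 counts in WT 66, 67 and 68. Its level averaged 0.802 ± 0.777 CPM in hm41 and 0.274 ± 0.237 CPM in WT (SD, n = 3 each), and the groups overlapped, with hm41 69 at 0 and WT 66 and 68 at 0.403 and 0.419 CPM. With no filter the log2 fold change of prl was 1.34 (95% confidence interval -1.63 to 4.32, edgeR adjusted p = 0.841), and without hm41 70 it was 0.42.

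Counts of gh1 and prl can also be set against each other within a library, with no scaling factor between libraries. The log2 ratio of gh1 to prl counts, with 0.5 added to each, was 4.09, 0.74 and 1.77 in hm41 69, 70 and 71, against 1.77, 0 and 1.14 in WT 66, 67 and 68. WT 67 held neither transcript, so its value of 0 is set by the added count and is no measurement. The groups overlapped, with hm41 69, where prl was at 0, far above the rest. The size of the hm41 69 value is likewise set by the added count. An added count weighs more where counts are few, so the ratio is not free of depth. The means were 2.20 ± 1.72 in hm41 and 0.97 ± 0.895 in WT (SD, n = 3 each), a difference of 1.23 (p = 0.5, exact permutation test, two-sided, where 0.1 is the smallest p that 3 against 3 allows). Without WT 67 the difference was 0.75 (p = 0.9, exact permutation test), and without hm41 69 it was 0.28 (p = 0.9, exact permutation test).

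The somatolactin genes were found almost entirely in a single library. Both smtla and smtlb held 6 counts in hm41 70 and 0 in hm41 69 and 71. In WT, smtla held 1 count in WT 68 and 0 in WT 66 and 67, while smtlb was at 0 in all WT libraries. At 1.33 CPM in hm41 70 each exceeded what 3 counts would give in WT 66 (0.605 CPM), WT 68 (0.628 CPM) and, narrowly, hm41 71 (1.28 CPM), but not what they would give in hm41 69 (1.40 CPM) or WT 67 (1.80 CPM). Of smtla the ratio of summed counts was 7.61 (counting interval 0.923 to 350). For smtlb the ratio was 2.54 with 3 counts put in for the 0 of the WT group. That value leaves out counting error in hm41, so it is no minimum. Both values rest on hm41 70, and without it neither gene had a count in hm41. With no filter the edgeR adjusted p was 0.769 for smtla and 0.585 for smtlb.

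For pou1f1 itself there were 0, 3 and 0 counts in hm41 69, 70 and 71, against 0, 0 and 2 counts in WT 66, 67 and 68. The libraries in which the factor was seen, hm41 70 and WT 68, were also those that held smtla. Prl was at its highest in hm41 70 too, at 1.55 CPM. Both libraries were among the deeper ones, but WT 66, the deepest of all, held no count of pou1f1, smtla or smtlb. Whether depth had a part was not tested. The gh1 level was highest in hm41 69 and hm41 71 (3.73 and 3.42 CPM), where pou1f1 had no count. A count of 0 there allows up to 1.40 and 1.28 CPM, more than the pou1f1 level of hm41 70 (0.665 CPM). A lower pou1f1 level in these 2 libraries was thus not resolved. With so few counts in both groups no fold is given for pou1f1 (edgeR adjusted p with no filter, 0.955).

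**Figure D2:**
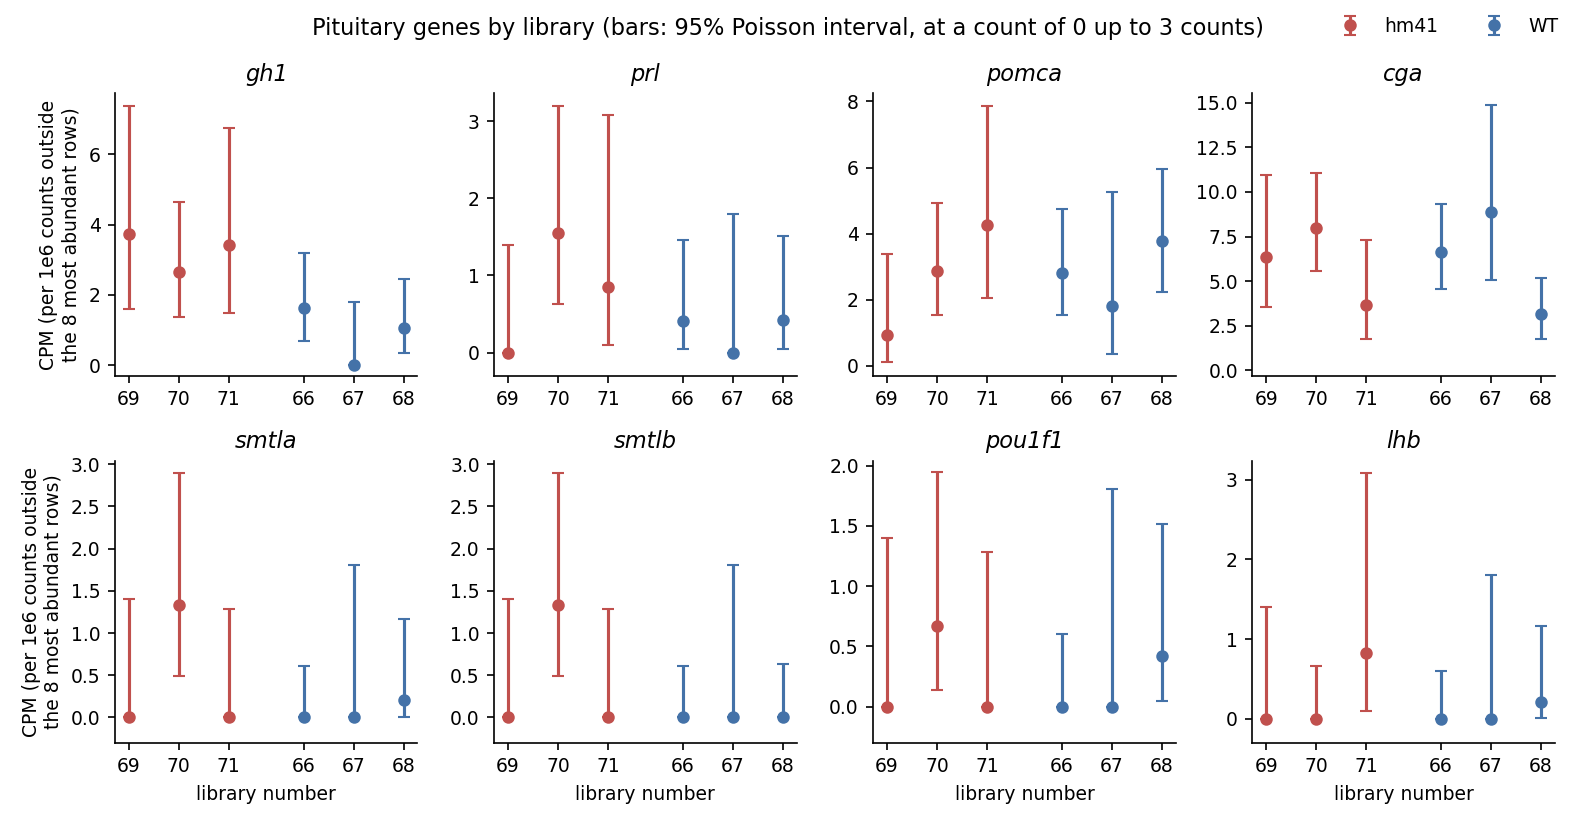
Levels in CPM are plotted by library for the 8 pituitary genes with any count, with hm41 69, 70 and 71 (red) left of WT 66, 67 and 68 (blue). Bars are 95% exact Poisson intervals, or reach from 0 to 3 counts where the count was 0. For gh1 the hm41 points (2.66 to 3.73) lie above the WT points (0 to 1.61), smtla and smtlb reach 1.33 in hm41 70, and pomca and cga overlap between the groups.

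The glycoprotein hormones pair the alpha subunit with a beta subunit that sets their identity. The alpha subunit gene cga had the most counts of the 10 genes, with 13.62, 35.99 and 8.61 expected counts in hm41 69, 70 and 71, against 32.93, 14.8 and 15.16 in WT 66, 67 and 68. None of these 6 values was whole, so part of the reads was assigned to cga by estimation and shared with other rows. The cga level was 6.36, 7.98 and 3.68 CPM in the hm41 libraries, against 6.64, 8.89 and 3.17 CPM in the WT libraries. The highest and the lowest library were both WT, and the groups overlapped throughout. The means were 6.01 ± 2.17 CPM in hm41 and 6.23 ± 2.88 CPM in WT (SD, n = 3 each).

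The beta subunits were at or near 0. Neither tshba nor fshb had a count, which allows a level of up to 0.665 CPM in hm41 70, the deepest hm41 library, and of up to 0.605 CPM in WT 66, the deepest WT library. For lhb there were 1.94 expected counts in hm41 71 and 1 in WT 68, with 0 in the other libraries of both groups, and no fold is given. Beta subunit transcripts of the thyroid and gonadal hormones were therefore not detectable, or barely so, at this depth in libraries where cga was counted.

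Transcripts of pomca, the precursor made by corticotropes and melanotropes, were found in every library. The pomca row held 2, 13 and 10 counts in hm41 69, 70 and 71, against 14, 3 and 18 counts in WT 66, 67 and 68. Its level was 0.933, 2.88 and 4.27 CPM in the hm41 libraries, against 2.82, 1.80 and 3.77 CPM in the WT libraries. The hm41 libraries spanned the WT range on both sides, with hm41 69 lowest and hm41 71 highest of all. The means were 2.70 ± 1.68 CPM in hm41 and 2.80 ± 0.984 CPM in WT (SD, n = 3 each). The row of its paralog pomcb held 4 counts over the hm41 libraries, all in hm41 71, and 2 over the WT libraries.

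Of the 10 genes, 2 (cga and pomca) passed the low-count filter and were tested among 19275 genes, and 0 of these 2 were called at an adjusted p under 0.05, against 0.0571% of all tested genes. The log2 fold change of cga was 0.088 (95% confidence interval -0.91 to 1.09, adjusted p = 0.97) and that of pomca was -0.081 (95% confidence interval -1.44 to 1.27, adjusted p = 0.98), both from edgeR. The intervals leave room for about a doubling or a halving of cga, and for larger changes of pomca in either direction. The sign of cga turned without hm41 70 (-0.19) or WT 68 (-0.26), and that of pomca turned without hm41 69 (0.28) or with library totals alone (0.090). With no filter, 8 of the genes entered the fit and 0 were called, against 0.472% of 27742 rows.

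**Figure D3:**
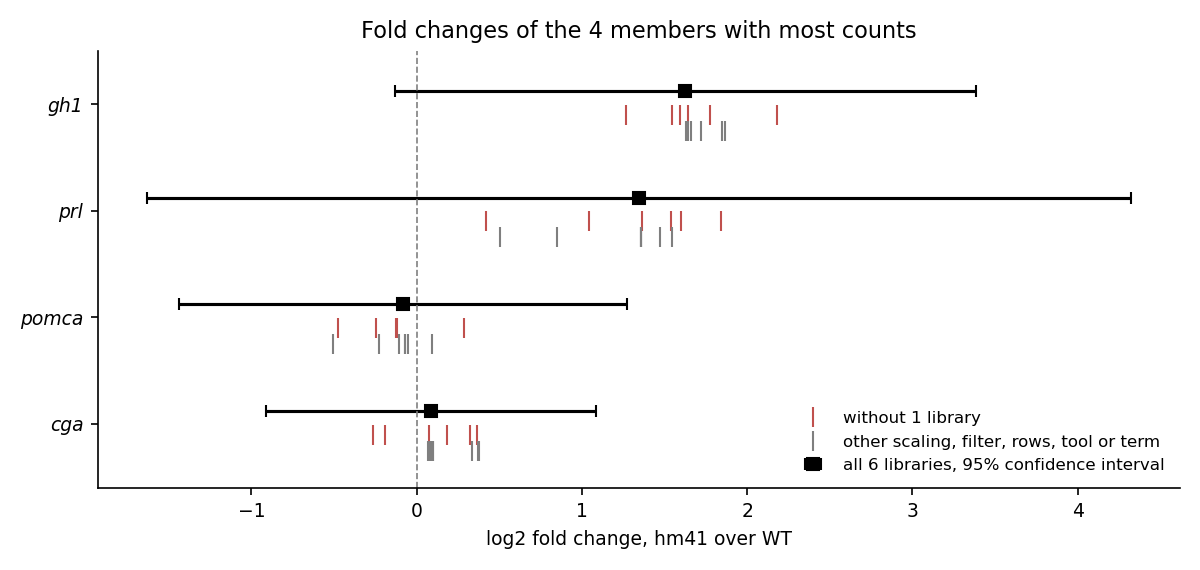
The log2 fold change of hm41 over WT is plotted for the 4 pituitary genes with most counts, with black squares and bars for the fit of all 6 libraries and its 95% confidence interval (with no low-count filter for gh1 and prl). Red ticks are the fits without 1 library, and grey ticks are other choices of scaling, filter, rows, tool or model term. All gh1 and prl ticks lie above 0 (from 1.27 to 2.18 for gh1 and from 0.42 to 1.84 for prl), while those of pomca and cga lie on both sides of 0, and each bar crosses 0.

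Profiles most like those of the hormones were sought among tested genes with an assigned symbol, by the root mean square difference of centred log2 CPM (here relative to TMM-scaled library totals) over the 6 libraries. Nearest to gh1 were fxn (0.25), rdh12l (0.26) and trappc5 (0.27), where the spread of gh1 itself was 0.99. For prl the nearest were mettl17 (0.23), arl13a (0.25) and btbd17b (0.25), and for pomca they were calcrlb (0.13), coq10b (0.13) and fhl3b (0.13). With 14625 to 14730 candidates and 6 libraries, close matches are no finding.

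Around the hormones, 10 lists of genes of the pituitary and its axes were examined, with 171 symbols besides the hormone genes. Of these, 167 matched a row and 111 were tested, and 0 were called, against 0.0571% of all tested genes. At that share, 0 calls among so few genes are no finding, here or for each list below. At an unadjusted p under 0.05 there were 10 higher and 2 lower in hm41, which is 10.8% of those tested, against 10.4% of all tested genes (5.35% higher and 5.05% lower). Values did not overlap between the groups, with hm41 higher, for 14 of the 111, against 7.56% of all tested genes, and with hm41 lower for 5, against 8.88%.

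Transcription factors of pituitary development gave no called gene among 16 tested, with a median log2 fold change of 0.027 against -0.020 for all tested genes. The smallest p-values belonged to neurod4 (0.46 ± 0.198, SE; adjusted p = 0.431), a neurogenic factor also used in many neurons, six3a (0.69 ± 0.334), a forebrain and eye factor, and insm1a (0.45 ± 0.236), a factor of endocrine and neuronal precursors. The gene hesx1, a repressor of early pituitary development, had no count in any library. The corticotrope factor gene tbx19, named after its values were seen, had 2.22, 1.14 and 2.67 CPM in hm41 69, 70 and 71, against 0.911, 0.799 and 0.488 CPM in WT 66, 67 and 68. All hm41 libraries thus lay above all WT libraries, with a log2 fold change of 1.47 and an adjusted p of 0.761 by edgeR with no filter. Counts of tbx19 were near the limit of detection, with 16 over hm41 and 8 over WT libraries. In WT 67, 3 counts would stand for 1.80 CPM, more than hm41 70 had. Other factors lay the opposite way. Among the 16 tested, the groups did not overlap for 2 genes with hm41 higher and for 2 with hm41 lower. Over all tested genes the shares were 7.56% higher and 8.88% lower. The 2 lower factors, named after their values were seen, were pitx1 (-0.47 ± 0.333, SE) and pitx3 (-0.46 ± 0.351). The nr5a1b row, removed by the filter like tbx19, also lay below WT in all hm41 libraries. The related nr5a1a row, which was tested, overlapped between the groups.

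Of the receptors through which pituitary hormones act, 6 were tested and 0 were called. The prolactin receptor gene prlra had 39.2, 45.9 and 45.3 CPM in hm41 69, 70 and 71, against 26.8, 31.2 and 25.2 CPM in WT 66, 67 and 68. These groups did not overlap, and the log2 fold change was 0.69 ± 0.209 (SE), but the adjusted p was 0.227 by edgeR. For the growth hormone receptor gene ghra the value was -0.47 ± 0.285 and for the melanocortin receptor gene mc5ra 0.45 ± 0.386. Receptors of the beta subunit hormones were scarce, like the hormones, with 2 counts in hm41 and 7 in WT for tshr, 3 in hm41 and 6 in WT for lhcgr, and none for fshr.

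Downstream of growth hormone and somatolactin, 16 genes were tested and 0 were called (median log2 fold change 0.046). The signal transducer gene stat5a had 15.9, 12.0 and 17.9 CPM in hm41 69, 70 and 71, against 27.8, 27.0 and 30.6 CPM in WT 66, 67 and 68, so that all hm41 libraries lay below all WT libraries. Its log2 fold change was -0.91 ± 0.254 (SE, edgeR adjusted p = 0.2). The insulin-like growth factor binding protein genes igfbp1a and igfbp5b had values of 0.73 ± 0.255 and 0.41 ± 0.175. For igf1, the gene of a hormone that growth hormone induces in the liver, named after its values were seen, the counts were 23 over hm41 and 44 over WT libraries (-0.83 ± 0.748).

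In the thyroid axis 12 genes were tested and 0 were called (median -0.12), with thrab, a thyroid hormone receptor gene, at -0.41 ± 0.168, the deiodinase gene dio3b at 0.71 ± 0.292 and the oxidase gene duox at -0.95 ± 0.460. Thyroglobulin transcripts (tg), which mark the gland itself and were named after their values were seen, had a value of -0.054 ± 0.332. In the interrenal and corticosteroid axis, the target of the pomca product, 12 genes were tested and 0 were called (median -0.0056). The liver enzyme gene tat stood at 0.85 ± 0.226 (adjusted p = 0.175), the cortisol-inactivating enzyme gene hsd11b2 at 0.73 ± 0.252 and the mineralocorticoid receptor gene nr3c2 at -0.58 ± 0.296, all by edgeR.

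The hypothalamic hormones that drive or hold back the pituitary had 8 tested genes, 7 above 0 and 1 below, with a median log2 fold change of 0.38 and 0 called. The list matched 20 rows, so most of it was not tested, and th, among those above 0, encodes an enzyme. Rows removed by the filter went both ways, with 5 counts in hm41 and 16 in WT for oxt and 14 and 6 for avp. The corticotropin-releasing hormone gene crhb had 6.07, 6.87 and 6.41 CPM in hm41 69, 70 and 71, against 3.23, 4.20 and 3.14 CPM in WT 66, 67 and 68, with no overlap between the groups. Its log2 fold change was 0.93 ± 0.482 (SE, edgeR adjusted p = 0.52). For prlh2, of the prolactin-releasing hormone family, the value was -0.81 ± 0.444, and for adcyap1a, which encodes a pituitary adenylate cyclase-activating peptide, it was 0.74 ± 0.439. Hypothalamic neuropeptides and markers had a median of 0.31 over 9 tested genes of 20 matched rows with 0 called, and shared crhb and other genes with that list. Of the 9, 7 lay above 0 and 2 below. Besides crhb, the otpb and otpa factors of neuroendocrine neurons had values of 0.53 ± 0.290 and 0.37 ± 0.206. The sim1a row, removed by the filter and named after its values were seen, lay below WT in all hm41 libraries. It held 15 counts over hm41 and 31 over WT libraries (edgeR adjusted p with no filter, 0.819).

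Receptors of those releasing and inhibiting hormones had a median of 0.053 over 17 tested genes, with 0 called. The dopamine receptor gene drd2b stood at 0.81 ± 0.290 (SE), the somatostatin receptor gene sstr1b at -0.91 ± 0.463 and the vasopressin receptor gene avpr1aa at -1.36 ± 0.749. Genes of prohormone cleavage and secretory granules, which hypothalamic and other neurons share with pituitary cells, were all tested (17 of 17), with a median of 0.075 and 0 called. They were led by pcsk1nl (0.45 ± 0.168), scg2b (0.38 ± 0.178) and cadpsa (-0.47 ± 0.241). Among endocrine genes outside the pituitary, star, calca and sst1.1 had values of 0.41 ± 0.583, 0.38 ± 0.569 and 0.15 ± 0.538, with a list median of 0.084.

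**Figure D4:**
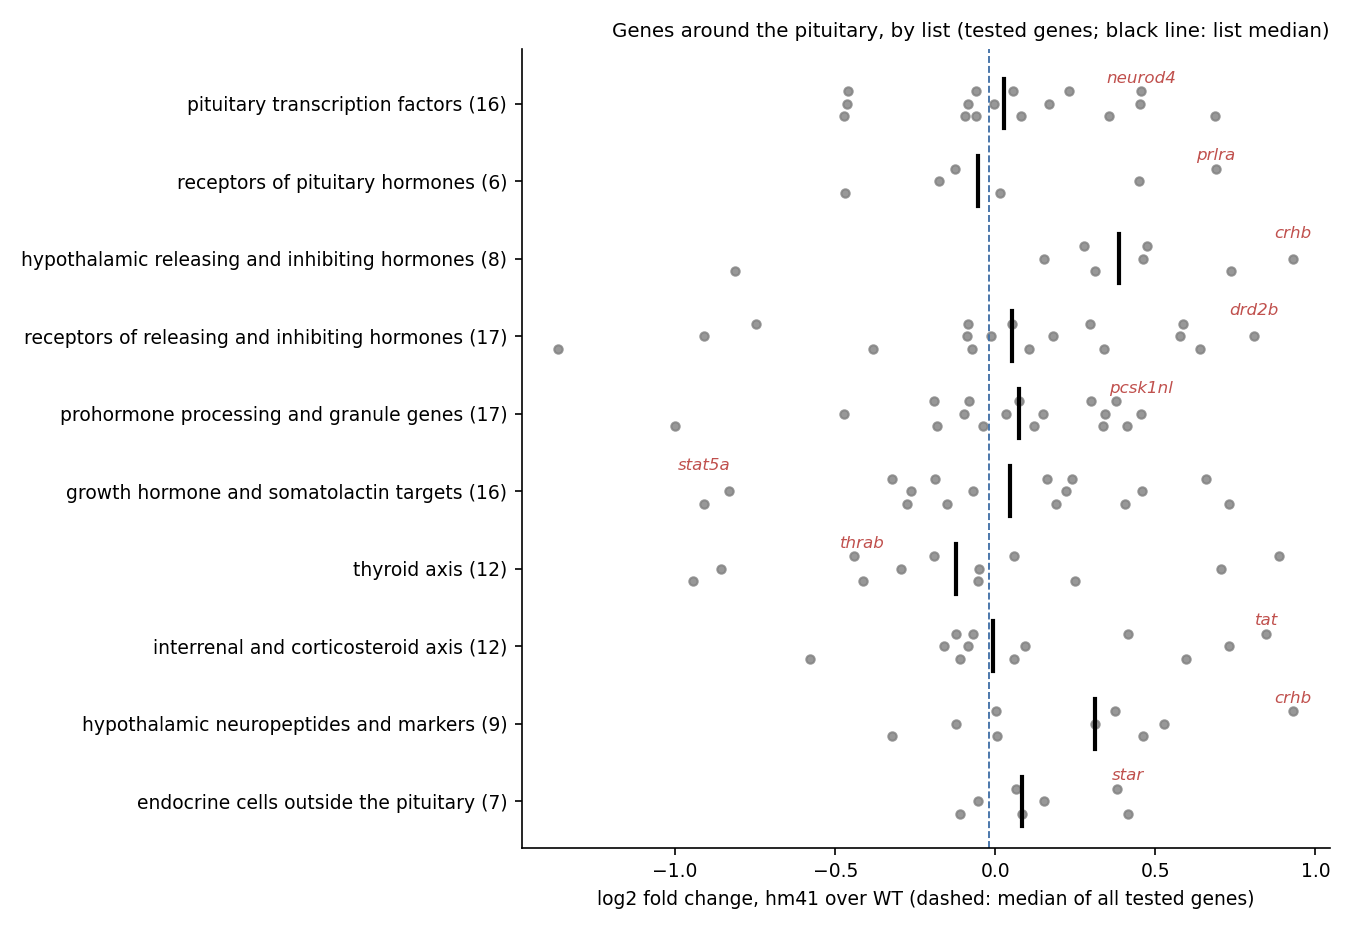
Each grey point is the log2 fold change of hm41 over WT of a tested gene, by list, with the number of tested genes in brackets, and the gene with the smallest p is named in red. Black lines are list medians and the dashed line is the median of all tested genes (-0.020). Medians run from -0.12 (thyroid axis) to 0.38 (hypothalamic releasing and inhibiting hormones), and no point shown passed the threshold.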

How the data were processed

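The authors deposited expected counts (unscaled estimates of reads per gene) for 30421 rows and 6 libraries. The build was GRCz11 per the submitters' processing notes, which also name TopHat, Bowtie2 and RSEM without their roles or versions. The annotation release is not given in the sources used here, nor is the strand setting. Per the labels' protocols the libraries were directional. Between 17.8% and 23.2% of the values per library were not whole (no tolerance), and values were rounded for tests. Tests used edgeR 4.0.16 in R 4.3.3 (quasi-likelihood F-test, robust, TMM normalization, two-sided, no covariate) on 19275 genes kept by filterByExpr, with Benjamini-Hochberg adjustment over all of them and a threshold of 0.05; 2679 rows were 0 in all libraries, and the fit with no filter held 27742 rows. Genes past the threshold are called here. DESeq2 1.42.0 and limma 3.58.1 were alternatives.

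The hormone genes and the lists were chosen with earlier results of these data known, and the list symbols were matched by name or RefSeq synonym (GRCz12tu). Named were all hormone genes, the 3 genes with the smallest p of each list, and the 3 tested genes nearest in profile to gh1, prl and pomca; others are marked as seen first, or are given by their counts. The floor for a count of 0 is 3 counts, per library, or over the group for folds. No gene lengths were used, so levels of different genes are not compared. The filtered edgeR, limma-voom and DESeq2 fits were tested on simulated data, with changes put into better counted genes. The fit with no filter, the counting intervals and the permutation test were not tested in this way.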

Additional observations from a re-analysis of the deposited data

How the results depend on the processing

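None of the 10 pituitary genes was called under any of the 14 alternatives, but few of them entered most fits. With no low-count filter 8 entered, and under every other alternative only 1 to 3 did. DESeq2 gave cga and pomca no adjusted p (unadjusted p 0.886 and 0.943 by its Wald test), so neither could be called there. The count of called genes over the whole table, 11 in the fit reported, was 47 with library totals alone, 140 with DESeq2, 18 with limma-voom, 19 with a term for the LOC110438492 split (a row with counts in WT 68, hm41 70 and hm41 71, which does not follow genotype) and 131 with no low-count filter, and ranged from 6 to 44 without 1 library. Among the related lists 1 gene, tat, was called, only with no low-count filter (log2 fold change 0.85, edgeR adjusted p = 0.0315). The median over all tested genes was 0.20 on the log2 scale with library totals alone, against -0.020 in the fit reported, and pomca then stood at 0.090. Without 1 library, pomca ranged from -0.48 to 0.28 and cga from -0.26 to 0.37, both signs included (0.28 for pomca without hm41 69, -0.19 and -0.26 for cga without hm41 70 and WT 68). Pomca failed the filter, and has no value, without WT 68 or without the 8 most abundant rows.

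Over 13 alternatives with no filter, gh1 kept a positive log2 fold change (1.27 to 2.18, adjusted p from 0.459 to 0.805, lowest unadjusted p 0.0231 by limma-voom), and so did prl (0.42 to 1.84, adjusted p from 0.776 to 0.983), which stood at 0.50 with the LOC110438492 term. Since every hm41 library lay above every WT library for gh1, fits without 1 library had little room to turn its sign. The kept sign is therefore no separate support. DESeq2 gave neither an adjusted p. The difference in the gh1 to prl ratio ranged from 0.28 to 1.96 without 1 library and was 0.96 with 1 added to each count. With no added count it could not be computed, since WT 67 held neither transcript and hm41 69 no prl. Causes of these shifts were not tested. Depth limits these values, with 3 counts standing for 0.605 to 1.80 CPM between libraries.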

Other observations

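Some sparse genes of the endocrine axes, removed by the low-count filter and singled out after their values were seen, had lower values in all hm41 libraries than in all WT libraries, at counts near the limit of detection. A count of 0 allows up to 1.40, 0.665 and 1.28 CPM in hm41 69, 70 and 71. For those with no count in hm41, a level below all WT libraries was thus not resolved in any single hm41 library. Floors or ratios over the summed counts of a group were not computed for these genes. The gene of a thyrotropin-releasing hormone receptor, trhrb, had no count in hm41 and 0.605, 1.201 and 1.05 CPM in WT 66, 67 and 68 (10 counts, edgeR adjusted p with no filter, 0.484). The iodide transporter gene slc5a5 of the thyroid likewise had no count in hm41 and 9 counts in WT, most of its level coming from WT 67 (3.604 CPM, against 0.403 and 0.209 in WT 66 and 68; adjusted p = 0.441 in the same edgeR fit). For cyp11a2, a steroidogenic enzyme gene, there were 2 counts over hm41 and 20 over WT libraries (0.148 ± 0.256 and 1.77 ± 0.547 CPM, SD, n = 3 each; edgeR adjusted p = 0.52 with no filter). It had no count in hm41 69 and 71, where up to 1.40 and 1.28 CPM are allowed, more than WT 66 had (1.21 CPM). A level below all WT libraries was thus not resolved there either. Another steroidogenic enzyme gene, cyp21a2, had 28 counts over hm41 and 15 over WT libraries, with overlap, and hsd3b1 had 15 and 22 (1.74 and 1.79 CPM). For nr5a1b, which encodes a steroidogenic factor, there were 5 counts over hm41 and 20 over WT libraries (edgeR adjusted p = 0.691 with no filter). The related nr5a1a gene, also seen first, was counted far more, with 1194 counts over hm41 and 1469 over WT libraries. Its groups overlapped (log2 fold change -0.086, edgeR adjusted p = 0.922 in the filtered fit). Of the 54 rows of the related lists that had a count and were removed by the filter, 5 lay below WT in all hm41 libraries and 3 above. Of all 165 rows of the related lists with a count, tested or not, 10 lay below and 17 above. Over all rows with a count, in these lists or not, the shares were 7.87% below and 5.96% above. Shares over removed rows alone were not computed. The vasopressin gene avp, also seen first, was among those above, with 0.933, 2.22 and 0.854 CPM in hm41 69, 70 and 71, against 0.806, 0 and 0.419 CPM in WT 66, 67 and 68. The 0 of WT 67 allows up to 1.80 CPM, more than hm41 69 and 71 had. An avp level above all WT libraries was thus not resolved there (edgeR adjusted p with no filter, 0.788).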
